A study of Canis lupus familiaris with 14 samples.

Results

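CD5L (ENSCAFG00000016447), also known as AIM, was followed in 7 dogs with osteosarcoma, each with a library of tumor and a library of bone. It is 1 gene of the 30951 in the count table and 1 of the 14461 with a mean of at least 1 CPM (the count scaled by the library's total). The gene was selected because its level rose in the tumors of these same libraries, so its own change is given as a description without a test. The genes that follow it most closely over the tumors were selected on the tumor values, and their likeness to CD5L there is described in the same way. Their relation to CD5L over the bones was tested. Tests of tumor against bone over all genes were read for them as a description.

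CD5L is a secreted protein of the scavenger receptor cysteine-rich (SRCR) family that is made mainly by tissue macrophages. Its transcription is induced by the liver X receptors (LXR), nuclear receptors for oxysterols that act as partners of the retinoid X receptor. In the circulation the protein is carried by pentameric IgM, and it enters cells through CD36, a scavenger receptor for lipids, where it was described to act on lipid storage and lipid droplet coat proteins. In macrophages it is known as an inhibitor of apoptosis.

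The 14 libraries were made from polyadenylated RNA. The bone came from phalanx P2 of the affected limb, and the tumors came from the left distal radius (dogs A, C and E), the right distal radius (dog F), the left distal femur (dog B), the left proximal humerus (dog D) and the right distal tibia (dog G). The breeds were Golden Retriever (A and F), Rottweiler (B), Doberman Pinscher (C), Greyhound (D and G) and Great Pyranees (E), and ages were not used here. All tissue was taken before chemotherapy and before macrometastases were seen. The bone is therefore from the same leg but from another skeletal site, and its marrow was depleted during a bone-specific extraction, whereas tumor RNA was extracted with Tri-Reagent, so that tissue, site and extraction cannot be told apart. The lowest RNA integrity was in the bone of dog B and in the tumor of dog A.

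Library totals ranged from 18650945 to 34479429 counts. The most counted gene took between 1.71% and 29.5% of a library, and the TMM factors, which adjust for such differences in composition, ranged from 0.641 to 1.3. The osteoblast genes BGLAP and SPP1 were counted in every tumor, at no less than 27.6 and 76.2 CPM. The deposited table gives gene identifiers only, and 2292 of them could be paired with a symbol. The paired genes are mainly those that the study listed as changed. The macrophage genes CD163, CD68, CSF1R, MARCO, TIMD4, VSIG4, C1QA and MSR1 and the regulators NR1H3 and SPIC were not among them and were not used here.

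In bone, CD5L was low in every dog. Dog B had 32 counts (1.42 CPM), dog D had 33 (1.01 CPM) and dog A had 21 (0.686 CPM). Dog E had 13 counts (0.377 CPM), dog C had 8 (0.273 CPM), dog G had 3 (0.0878 CPM) and dog F had 0. For dog F the level of 3 counts is 0.0934 CPM, and the 95% exact Poisson interval of its 0 counts reaches 0.115 CPM. The mean over the 7 bones was 0.550 ± 0.517 CPM (SD, n = 7).

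In tumor, the level of CD5L ran from near that of bone to far above it. The tumor of dog B had 3626 counts, or 122 CPM with a 95% exact Poisson interval of 118 to 126. Dog C had 799 counts (42.8 CPM, 39.9 to 45.9), dog E had 336 (10.2 CPM, 9.15 to 11.4) and dog D had 107 (4.20 CPM, 3.44 to 5.08). These 4 tumors lay above every bone, and none of their intervals overlapped. The other tumors lay within the range of the bones, dog A at 19 counts (0.827 CPM, 0.498 to 1.29), dog G at 13 (0.413 CPM, 0.220 to 0.706) and dog F at 5 (0.172 CPM, 0.0558 to 0.401). With TMM factors the tumor of dog A, at 1.19 CPM, also lay above the highest bone, that of dog B at 1.16 CPM. The mean over the 7 tumors was 25.8 ± 44.9 CPM (SD, n = 7), and the highest tumor held 709 times the level of the lowest. These intervals cover counting error only.

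**Figure D1:**
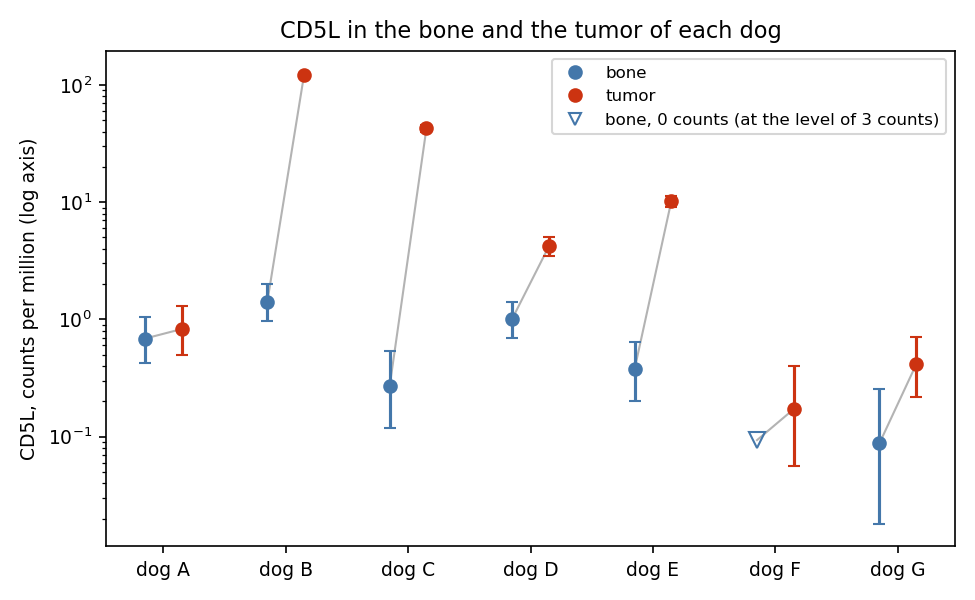
CD5L in CPM (log axis) in the bone and tumor of each dog, with bars for 95% exact Poisson intervals and a line joining the tissues of a dog. The tumors of dogs B, C, E and D, from 122 to 4.20 CPM, sit above all bones, the tumors of dogs A, G and F do not, and the bone of dog F, with 0 counts, is drawn as an open triangle at the level of 3 counts.

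When all 14 libraries were ordered by CD5L, the first places were the tumors of dogs B, C, E and D, each separated from the next library by intervals that did not overlap. From the bone of dog B downwards, all 9 pairs of neighbours had overlapping intervals. Bones and tumors were interleaved there, and only libraries farther apart in the order, such as the bone of dog B and the tumors of dogs G and F, had intervals that did not overlap. Of the 13 neighbouring pairs, 4 were separated. In bulk tissue, fewer cells that make a transcript and less RNA per cell cannot be told apart.

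Within dogs, the tumor value was above the bone value in 7 of 7 pairs, but the size of the difference varied widely. The ratio of tumor to bone CPM was 157 in dog C (95% counting interval 79.3 to 365), 85.8 in dog B (60.7 to 126) and 27.1 in dog E (15.6 to 51.4). It was 4.70 in dog G (1.29 to 25.7), from 13 counts against 3, and 4.16 in dog D (2.79 to 6.35). In dog F, 5 counts stood against 0, at least 1.84-fold higher in tumor when the bone is set to 3 counts, while the 95% counting interval of this ratio starts at 1.01. In dog A the ratio was 1.21 with an interval of 0.614 to 2.36, so no difference was detectable at this depth.

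On the scale of log2(CPM + 1), the paired difference was 5.66 in dog B, 5.11 in dog C, 3.03 in dog E and 1.37 in dog D, and it lay between 0.12 and 0.38 in dogs A, F and G. The mean was 2.27 ± 2.36 (SD, n = 7), so the spread between dogs was as large as the mean. Among the 14461 genes, CD5L had the 10th largest difference in both dog B and dog C, the 101st in dog E and the 800th in dog D. In the other dogs it ranked between 2111 and 4956.

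The fit over all genes, with dog as a term, gave CD5L a log2 fold change of 4.04. Without the term for dog it was 5.43, and leaving out single dogs moved it between 3.35 (without dog C) and 4.74 (without dog A), with 3.38 without dog B. All were positive, and they average over dogs whose own ratios by library totals ran from 1.21 to 157.

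Whether a dog with more CD5L in its bone also had more in its tumor was examined over the 7 dogs on the log2(CPM + 1) scale. As a description, Pearson's r was 0.58 and Spearman's rho was 0.68. Without dogs B and D, the dogs with bone levels farthest from the median, r was 0.25.

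The spread of CD5L between dogs was wide in the tumors. The SD of log2(CPM + 1) over the 7 tumors was 2.60 for CD5L, against a median of 0.646 and a 99th percentile of 2.16 over 14461 genes, which placed it 47th. Over the 7 bones its SD was 0.467, against a median of 0.430. CD5L was near the detection limit in several bones and reached a mean of 1 CPM only through the tumors, and the pseudocount of 1 compresses differences at such levels, so its SD in bone cannot be ranked against that of other genes.

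**Figure D2:**
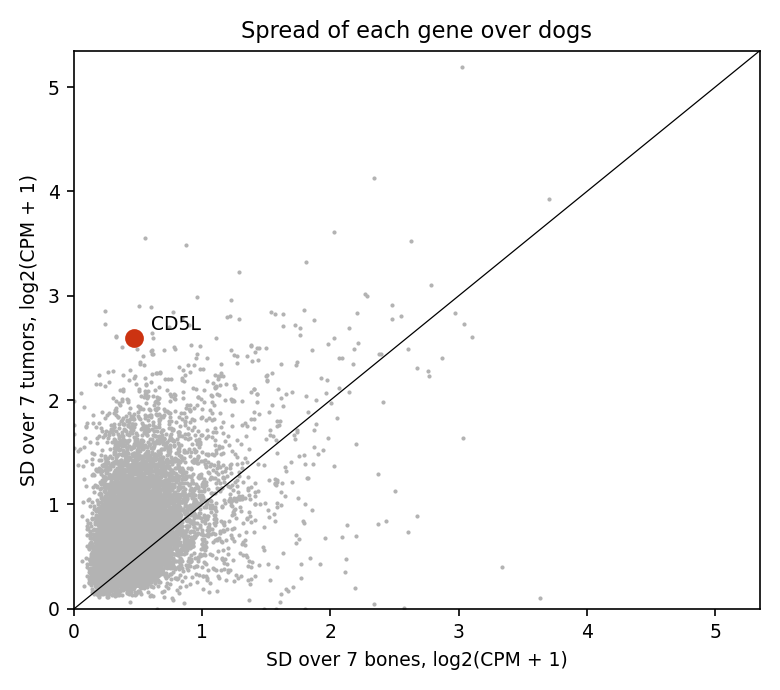
SD of log2(CPM + 1) over the 7 bones (x axis) and the 7 tumors (y axis) for 14461 genes with a mean of at least 1 CPM, with the line of equal spread. CD5L, the large point, stands at 0.467 in bone and 2.60 in tumor, above the 99th percentile of 2.16 for tumors.

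The genes closest to CD5L over the tumors were then listed. Pearson's r of log2(CPM + 1) with CD5L was calculated for 14456 other genes over the 7 tumors. The median was 0.24, and 151 genes had r over 0.9 whereas 5 had r under -0.9. With 7 points, shared library composition and 2 tumors with very high CD5L, such values describe these tumors only. The 20 highest ran from 0.995 to 0.950, and the 21st gene, AASS, had 0.949. Tumor B was the highest for 18 of these 20 genes and tumor C for 2.

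The closest gene, ENSCAFG00000012051 (no symbol paired), had r = 0.995 and rho = 0.96. In the tumors of dogs A to G it was at 51.0, 124, 98.8, 63.8, 76.2, 45.2 and 53.0 CPM, a range of 2.75-fold. With TMM factors its r was 0.756, so its place depended on the scaling. The second, ENSCAFG00000015840, put the 7 tumors in the same order as CD5L (r = 0.984, rho = 1), from 34.1 CPM in dog F to 246 in dog B, and kept r = 0.934 with TMM factors.

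The third, ENSCAFG00000004694, had r = 0.978 and, with TMM factors, 0.992. Its tumor levels were 9.66 CPM in dog G, 13.9 in dog A, 16.7 in dog F, 36.9 in dog D, 42.5 in dog E, 119 in dog C and 165 in dog B. Dogs B and C again stood highest and dogs A, F and G lowest. ENSCAFG00000016284, the 7th, also matched the order of CD5L (rho = 1), with r = 0.973 and 0.950 with TMM factors. ENSCAFG00000025113, the 8th, had the widest range among those counted in every tumor, 190-fold.

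Only 4 of the 20 closest genes were paired with a symbol. SLC2A4RG (4th, r = 0.98), a zinc finger factor that regulates the glucose transporter GLUT4, ranged from 44.2 CPM in dog A to 111 in dog B. BEX3 (6th, r = 0.97), an adaptor of the neurotrophin receptor p75, stayed at or under 1.14 CPM in all tumors and was 0 in dogs A and F, so its values rest on few counts. TMEM117 (12th, r = 0.96), a membrane protein, ranged from 2.44 CPM in dog A to 16.2 in dog B. EGR2 (17th, r = 0.95), an early growth response transcription factor, ranged from 1.57 CPM in dog A to 9.03 in dog B.

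**Figure D3:**
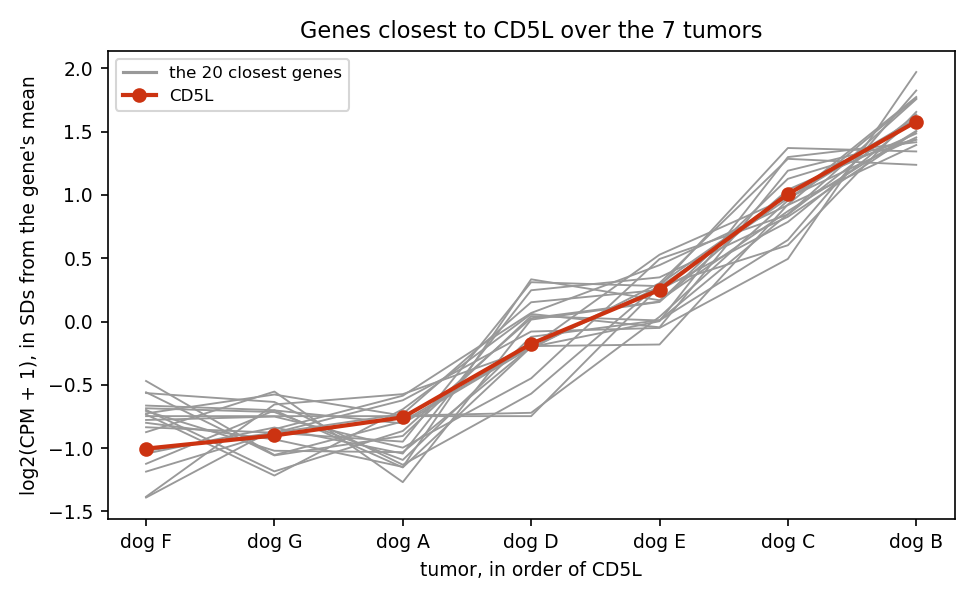
The 7 tumors in order of CD5L (x axis) against log2(CPM + 1) in SDs from each gene's own mean (y axis), for CD5L (thick line with points) and the 20 closest genes (thin lines). The genes were chosen for this likeness: dogs F, G and A sit low, D and E in the middle, C and B high.

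The fold range of these genes over the tumors was narrower than that of CD5L for every member counted in all tumors, from 2.19 to 190 with a median of 10.2, against 709 for CD5L. Without the tumors of dogs B and C, which lie farthest from the median of CD5L, their r over the other 5 tumors was between 0.75 and 0.98 with a median of 0.89, whereas the median over all genes was -0.07. This r shares its tumors with the choice of the genes. With TMM factors, r of the 20 ranged from 0.727 to 0.992, and 10 of them were among the 20 closest under both scalings.

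The bones entered the choice of these genes only through the filter on mean CPM. Over the 7 bones, r with CD5L was between -0.55 (EGR2) and 0.49 with a median of 0.02, positive for 11 of 20. No r or rho reached an unadjusted p under 0.05, the smallest being 0.195 for r and 0.11 for rho (exact permutation test, two-sided). After adjustment over the 20 genes the smallest p-values were 0.97 for r and 1.0 for rho. CD5L is at 0 to 33 counts in bone, which limits the precision of any relation there.

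Tumor against bone was the other measure, which shares the tumor values with the choice of the genes, so the counts are a description. The edgeR quasi-likelihood test over 27655 genes called 1.35% of genes higher and 1.79% lower in tumor (FDR under 0.05, base mean over 10, fold change over 2). Among the 20 closest genes, 0 were called higher and 0 lower, and 4 had an unadjusted p under 0.05, beside 17.8% of all genes. The shares over all genes include genes with a mean under 1 CPM, from which the 20 were not drawn, so the sets are unlike. The limma-voom fit, which called 1.87% of all genes higher and 2.19% lower, called 0 of the 20 higher and 1 lower. DESeq2, which called 4.47% of all genes it tested higher and 6.85% lower, called 0 of the 20 higher and 3 lower. The median log2 fold change of the 20 was -0.05, beside -0.05 over all genes tested, with 9 above 0 and 11 below. SLC2A4RG, at -0.84 ± 0.16 (SE; edgeR FDR = 0.019), had an FDR under the threshold but a fold change under 2. BEX3 had a log2 fold change of -3.27 ± 0.92 (edgeR FDR = 0.082), from 0.702 to 5.78 CPM in bone.

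Among genes with a symbol, those next in closeness to CD5L were read out after their values were seen. CD37, a tetraspanin of leukocytes (32nd, r = 0.94), was higher in tumor by 1.28 on the log2 scale (SE 0.29, edgeR FDR = 0.039), and ARHGAP4, a GTPase activating protein of blood cells (146th, r = 0.90), by 1.07 (SE 0.25, edgeR FDR = 0.046). RBP7, a retinol-binding protein of adipose and endothelial tissue (89th, r = 0.92), fell by 3.84 (SE 0.42, edgeR FDR = 0.003). SELENOP, the selenium carrier of plasma (165th, r = 0.90), ANXA3 and WSCD2 were also called lower. Of the 20 closest genes with a symbol, 2 were called higher and 4 lower, whereas of all 2292 genes with a symbol, 15.5% were called higher and 18.8% lower.

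The pathway of CD5L was read through gene lists, whose paired members carry the same excess of called genes. Their counts therefore stand beside the shares of 15.5% and 18.8%, and the median log2 fold change of genes with a symbol was -0.80. DESeq2 called 31.2% of genes with a symbol higher and 45.3% lower, and its counts are read against these shares. An unadjusted edgeR p under 0.05 was held by 96.8% of genes with a symbol, so such counts in the lists below say little about a list. Of 19 genes of the LXR pathway, 7 were paired, with 0 called higher and 3 lower by edgeR, 0 and 4 by DESeq2, and a median of -1.85. Of the 7 genes, 6 had an unadjusted edgeR p under 0.05.

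APOE, a lipid carrier and LXR target, was at 4793, 4310, 2771, 1777, 1142, 1649 and 1998 CPM in the bones of dogs A to G and at 935, 2047, 585, 115, 316, 62.4 and 601 CPM in the tumors. It was lower in every tumor than in the bone of the same dog, by 2.42 on the log2 scale (-2.42 ± 0.46, edgeR FDR = 0.019), although the groups overlapped through dog B. Its call was lost without dog C. SCD, a desaturase of fatty acids, was lower by a log2 fold change of -1.96 ± 0.44 (edgeR FDR = 0.039), a call lost without dog A, B, D, E or G. LPL, the lipoprotein lipase, was lower by -1.91 ± 0.31 (edgeR FDR = 0.010) with groups that did not overlap. RXRA, the partner receptor of LXR, MYLIP, a ligase that degrades the LDL receptor, SMPDL3A, a secreted phosphodiesterase, and the coactivator NCOA1 had log2 fold changes from -0.57 to -1.85 and were not called.

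Over the tumors, the mean log2 level of the 7 LXR genes had r = 0.74 with CD5L, 0.43 without dog B and 0.14 without dogs B and C. SMPDL3A, with r = 0.82, was the closest of them. PPARG, the adipocyte nuclear receptor and the only paired gene of 9 other reported regulators, was lower in tumor (-1.20 ± 0.15, edgeR FDR = 0.004). Its tumor levels ranged only from 12.7 to 34.3 CPM.

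All 4 paired genes of the 15 partners and targets of CD5L fell. CD36, the receptor for CD5L uptake, was at 117.7, 183, 77.3, 419, 97.2, 152 and 166 CPM in the bones of dogs A to G and at 19.7, 51.9, 51.2, 82.5, 21.1, 30.3 and 21.3 CPM in the tumors. It was lower in 7 of 7 dogs, with a log2 fold change of -2.03 ± 0.22 (edgeR FDR = 0.003), although the tumor of dog D lay above the bone of dog C. The lipid droplet genes changed more, CIDEC by -5.06 ± 0.45 (edgeR FDR = 0.002), CIDEA by -4.86 ± 0.64 (edgeR FDR = 0.005) and PLIN1, perilipin of adipocytes, by -4.62 ± 0.38 (edgeR FDR = 0.002). These 3 are abundant in fat cells, and their levels were highest in the bone and tumor of dog D. The mean level of the 4 genes had r = 0.00 and rho = 0.39 with CD5L over the tumors, and r = 0.35 without dogs B and C. Their summed CPM had r = 0.40, and CD36 alone had r = 0.52.

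The other members of the SRCR family gave 6 paired genes of 23, with 0 called higher and 1 lower by edgeR and 1 and 5 by DESeq2. An unadjusted edgeR p under 0.05 was held by 6 of 6, near the share of 96.8%. PRSS12, a serine protease with SRCR domains, was lower in tumor (-1.67 ± 0.38, edgeR FDR = 0.039), but the call was lost on leaving out any dog other than G. LOXL2, a lysyl oxidase that cross-links collagen, had the only positive log2 fold change (1.20 ± 0.31, edgeR FDR = 0.067). None of them was as variable as CD5L over the tumors, and r of the mean with CD5L was 0.53. That r was -0.19 without dog B, 0.94 without dog C, 0.73 without dogs B and C, and 0.13 for summed CPM.

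Macrophage genes are the list closest to CD5L in cell type. Of 30, 6 were paired, with 2 called higher and 1 (APOE) lower by edgeR, and 5 higher and 1 lower by DESeq2. FCGR1A, the high-affinity IgG receptor, was at 8.91, 5.89, 5.15, 13.4, 4.0, 9.56 and 13.2 CPM in the bones of dogs A to G and at 7.88, 45.2, 40.2, 28.8, 13.9, 17.8 and 38.8 CPM in the tumors. It was higher in tumor in 6 of 7 dogs, all but dog A, by 1.67 ± 0.33 on the log2 scale (edgeR FDR = 0.021). SLC11A1, a metal transporter of the phagosome, was higher in the same number of dogs (1.71 ± 0.40, edgeR FDR = 0.043), with 354 CPM in tumor B and 15.8 to 83.5 CPM in the other tumors. The costimulatory ligand CD86 (1.37 ± 0.38, edgeR FDR = 0.081), MS4A7 (1.60 ± 0.42, edgeR FDR = 0.069) and ADGRE1, the F4/80 antigen (1.32 ± 0.50, edgeR FDR = 0.191), were not called. Leaving out dog C, E or G left 0 macrophage genes called higher, and leaving out dog B, D or F left 1.

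Over the tumors, all 6 macrophage genes were highest in dog B, the tumor with the most CD5L. The mean level of the list had r = 0.81 and rho = 0.68 with CD5L, which ranged from 0.58 to 0.94 on leaving out single dogs and was 0.06 without dogs B and C. MS4A7 was the closest member (r = 0.86, rho = 0.89, and r = 0.44 without dogs B and C). It was at 3.09, 33.9, 16.0, 9.62, 9.85, 7.42 and 8.96 CPM in the tumors of dogs A to G. The part of macrophage content in the level of CD5L was not tested.

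**Figure D4:**
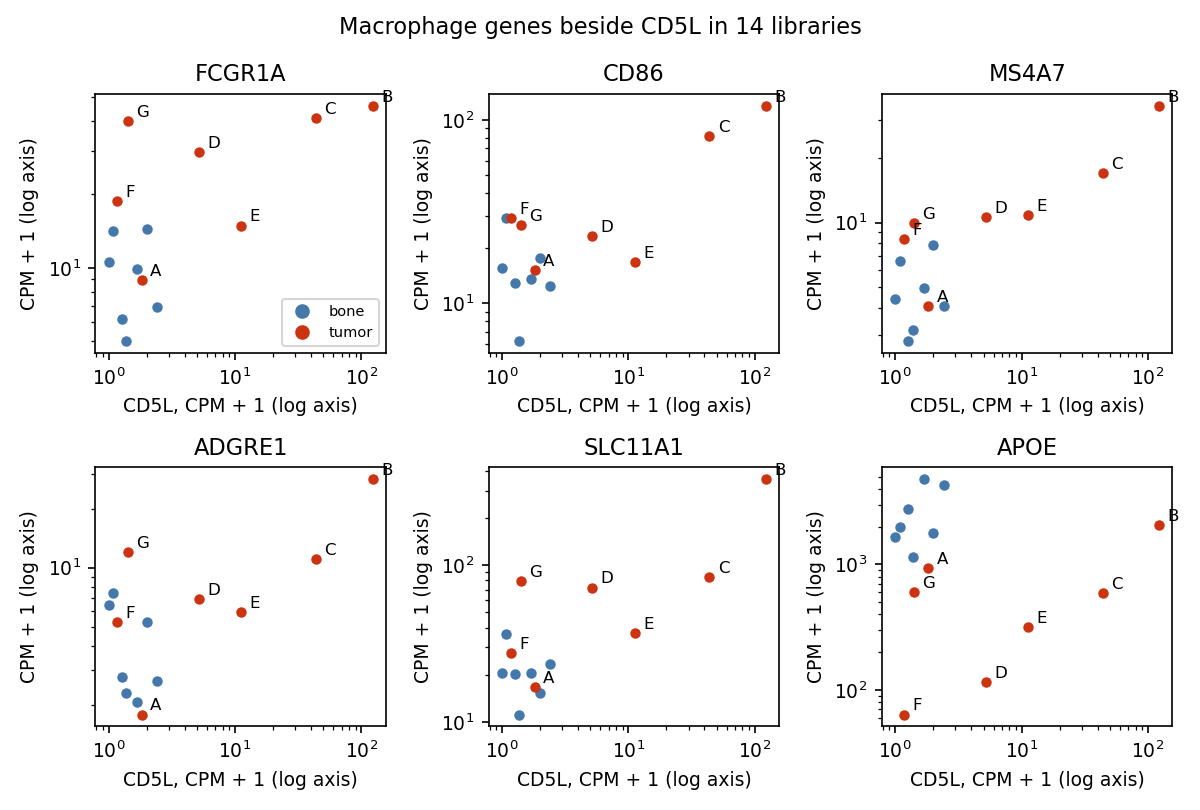
CPM + 1 of 6 macrophage genes (y axes, log) against CPM + 1 of CD5L (x axes, log) in 7 bones and 7 tumors, tumors labelled by dog. Tumor B is highest among the tumors for all 6 genes, tumor A is lowest for all but APOE, and APOE is higher in bone.

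The macrophage genes covered a smaller range than CD5L. APOE, which took the most counts of the list in all 14 libraries and fell in tumor, was first left out of their sum, a choice made after its values were seen. The summed level of the 5 macrophage genes other than APOE was 41.7 CPM in the tumor of dog A, 80.4 in dog E, 84.4 in dog F, 138 in dog D, 163 in dog G, 230 in dog C and 579 in dog B, a 13.9-fold range against 709-fold for CD5L. In bone the sum lay between 22.9 and 89.1 CPM. The ratio of CD5L to that sum, which does not hold CD5L, was 21.0% in the tumor of dog B, 18.6% in dog C and 12.7% in dog E, against 3.05% in dog D, 1.98% in dog A, 0.253% in dog G and 0.203% in dog F. The same quantity was between 0% and 3.20% in bone, and it is not per gene length. With APOE the sum was 977, 2626, 816, 253, 397, 147 and 764 CPM in the tumors of dogs A to G, and the ratio of CD5L to it was 0.0846%, 4.63%, 5.25%, 1.66%, 2.58%, 0.117% and 0.0541%, against 0% to 0.0551% in bone. Dogs B and C were thus highest and dog G among the lowest with either sum. Either sum was higher in dog G than in dog E, with less CD5L in dog G, whereas MS4A7 was at 8.96 CPM in dog G and 9.85 in dog E.

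Genes of resident macrophages, such as those of spleen and liver, gave 4 of 22. None was called by edgeR, with an unadjusted p under 0.05 for 4 of 4, near the share of 96.8%, and DESeq2 called HMOX1 higher and the other 3 lower. HMOX1, the heme oxygenase, was higher in tumor in 7 of 7 dogs (1.40 ± 0.34, edgeR FDR = 0.051), with 1051 CPM in the tumor of dog B. SLC40A1, the iron exporter ferroportin, was lower in 7 of 7 dogs (-1.01 ± 0.30, edgeR FDR = 0.093), with r = 0.71 to CD5L over the tumors. VCAM1, an adhesion molecule, and C6, a complement component, had log2 fold changes of -2.46 ± 0.73 and -2.87 ± 1.14 (edgeR FDR = 0.098 and 0.213). The r of the list with CD5L was 0.57, and it was 0.07 without dog B, 0.84 without dog C and 0.55 without dogs B and C.

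The mean of 3 monocyte and neutrophil genes of 18 had r = 0.20 with CD5L over the tumors, and that of 3 erythroid genes of 18 had r = 0.15. Without dog F these were -0.19 and -0.27, without dog D 0.41 and 0.27, and without dogs B and C 0.50 and 0.25. None of either list was called by edgeR, with an unadjusted p under 0.05 for all 3 of each, whereas DESeq2 called 2 monocyte and neutrophil genes higher and 1 lower, and 3 erythroid genes lower. Of 8 paired osteoclast genes of 16, 1 was called lower by edgeR, the calcitonin receptor CALCR (-4.79 ± 0.67, edgeR FDR = 0.006), and 8 by DESeq2. Their summed level was 26775 CPM in the tumor of dog D and 263 CPM in dog F, and 7 of the 8 were highest in dog D, where CD5L was intermediate. The mean level of the list had r = 0.33 with CD5L, 0.03 without dog F, 0.61 without dog D and 0.67 without dogs B and C. IL7R, the only paired T cell gene of 18, was at 15.5 CPM in the tumor of dog C and 7.55 in dog B, and at no more than 3.37 in the others. It was called higher by DESeq2 and not by edgeR (unadjusted p = 0.0286). Among B and plasma cell genes 2 of 13 were paired and edgeR called none, with 1 unadjusted p under 0.05, and DESeq2 called 1 in each direction, with summed tumor levels from 0.515 to 5.77 CPM. APOA1, the only paired hepatocyte gene of 10, was called lower by DESeq2 and not by edgeR (unadjusted p = 0.0172).

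Endothelial genes gave 3 of 14, with 2 called lower by edgeR and by DESeq2, and 2 of the 3 had r of 0.86 or more with CD5L over the tumors. By library totals, EGFL7, a secreted angiogenic protein, ordered the 7 tumors as CD5L did (rho = 1, r = 0.89, and 0.86 without dogs B and C). Its levels were 76.5, 149, 141, 106, 112, 41.4 and 69.8 CPM in the tumors of dogs A to G. With TMM factors, 1.195 in tumor B and 0.722 in tumor E, EGFL7 would be highest in tumor E, so the shared order depended on the scaling. EGFL7 was lower in tumor than in bone in every dog (-1.49 ± 0.25, edgeR FDR = 0.011), opposite to the direction of CD5L. EMCN, an endothelial sialomucin, had r = 0.86 and rho = 0.82, and r = 0.44 without dogs B and C, with 19.7, 53.1, 51.5, 35.6, 20.3, 15.1 and 23.1 CPM in the tumors of dogs A to G. Its log2 fold change was -0.97 ± 0.26 (edgeR FDR = 0.069). The tight junction gene CLDN5 was lower (-2.05 ± 0.46, edgeR FDR = 0.038), a call lost without dog B, C, D, E or F, and had r = -0.15 with CD5L. The mean level of the list had r = 0.53 and rho = 0.68, and r = 0.34 without dogs B and C, and the summed CPM had r = 0.79. The macrophage list had r = 0.81 and rho = 0.68 by mean level, 0.06 without dogs B and C, and by summed CPM 0.61 with APOE and 0.77 without it.

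Osteoblast genes gave 5 of 12, with 3 called lower by edgeR, 5 by DESeq2 and 1 without dog A, D or G. SPP1, osteopontin, was at 1525 to 3890 CPM in bone and at 76.2 to 1077 CPM in tumor without overlap (-2.68 ± 0.55, edgeR FDR = 0.028), and its r with CD5L over the tumors was 0.79. Its call was lost without dog A, C, D or G. The mean level of the 5 genes had r = 0.47 with CD5L, 0.84 without dog B, 0.27 without dog C and 0.29 without dog G. Without dogs B and C it was 0.72, and the summed CPM of the 5 genes had r = 0.77. The proliferation list had 11 of 12 paired and 11 called higher, with log2 fold changes from 2.17 to 3.25, among them TOP2A and MKI67. Its mean level had r = 0.10 with CD5L over the tumors, 0.60 without dog F and -0.60 without dogs B and C. Its highest summed level, 1798 CPM, was in dog F, the tumor with the least CD5L.

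**Figure D5:**
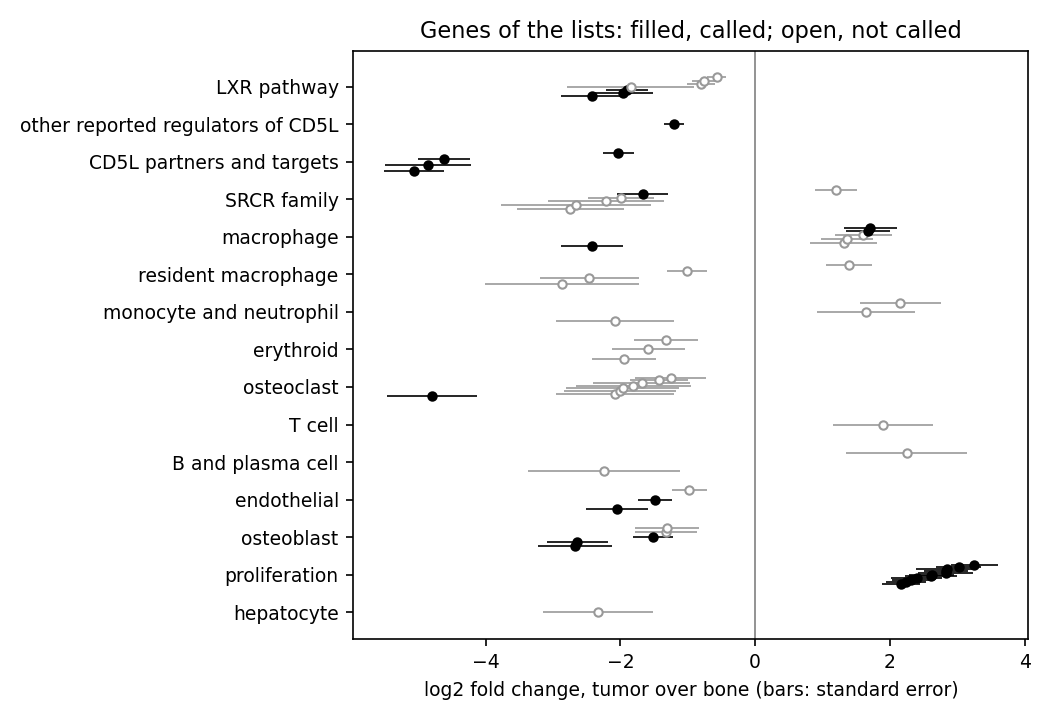
Log2 fold change of tumor over bone (x axis, bars for the standard error) for the paired genes of 15 lists (y axis), filled where called and open where not. Proliferation genes lie between 2.17 and 3.25, partners and targets of CD5L between -5.06 and -2.03, and macrophage genes other than APOE between 1.32 and 1.71.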

How the data were processed

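Polyadenylated RNA of 7 tumors and 7 bones was sequenced as paired reads. Raw counts per gene, without normalization, were deposited by the authors, who used Trimmomatic, HISAT2 with the CanFam3.1 genome, and StringTie. The submitters' processing notes list FastQC 0.10.1, Trimmomatic 0.39, HISAT2 2.2.1 and StringTie 1.3.3. Strand and multi-mapping settings are not given in the sources used here, so near-identical copies of a gene may share reads. The members and lists were chosen with earlier results of these data known.

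Counts were divided by library totals (CPM) and read as log2(CPM + 1). Tumor was compared with bone with edgeR 4.0.16 (R 4.3.3, quasi-likelihood test, TMM) for 27655 genes with at least 1 count, with dog as a term. FDR is the Benjamini-Hochberg value over these genes, and calls needed an FDR below 0.05, a base mean above 10 and a change of more than 2-fold, the thresholds of the study. Standard errors are the log2 fold change divided by the root of F. DESeq2 1.42.0, limma 3.58.1, other scalings, filters, pseudocounts and the omission of each dog were alternatives. The bone and tumor of a dog are paired because they come from the same animal, and their deviations from the tissue means correlated by 0.0831 to 0.202. Each tissue of a dog is 1 library. The p-values of the fits with dog as a term therefore measure the spread between dogs of the tumor and bone difference, with technical spread included.

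Correlations used genes with a mean of at least 1 CPM, without those of constant value in tumor. Exact permutation tests took all pairings of the dogs. The test and the ranking were tested on simulated data. Symbols were taken from the supplementary tables. Genes named are CD5L, its closest genes, and from each of 15 lists the called members with the smallest p-values, and NR1H3, SPIC, CD36, MARCO, CD163, TIMD4, VSIG4, C1QA, CSF1R, CD68 and MSR1 where paired, and 1 further gene that is not reported here. Other members of a list were named after their values were seen. Sequences and coordinates were not used here.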

Additional observations from a re-analysis of the deposited data

Results flagged for a closer look

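For CD5L, its closest genes and the list genes, each set of 7 libraries was examined for a library far from the rest by Dixon's criterion. Of 170 such groups, 11 (6.47%) had one, counting CD5L on the scale of CPM and the others on that of log2(CPM + 1). The groups share the same 14 libraries, and the closest genes were chosen for a like pattern. This share therefore cannot be set against the 1 in 20 that chance gives for independent groups. CD5L itself was at 121.7 CPM in the tumor of dog B, against 42.8 CPM in the next tumor. This rests on the scale and is a description, because on the scale of log2(CPM + 1) the same tumors were at 6.94 and 5.45 with a lowest tumor at 0.229, and dog B was not set apart.

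The other values are on the scale of log2(CPM + 1). In the bone of dog E, ENSCAFG00000016284 was low at 1.65, RXRA at 5.92 and the complement factor CFI at 4.67. The most counted gene took 29.5% of that library and its TMM factor was 0.641, and these values are not scaled by it. With TMM factors, RXRA in bone E would lie within the range of the other bones, while ENSCAFG00000016284 and CFI would stay lowest. In the bone of dog A the osteoclast genes ACP5, at 12.29, and OSCAR, at 5.23, were high. In the tumor of dog D, CIDEA was high at 3.23 and the erythroid gene HEMGN at 1.97. In the remaining cases ENSCAFG00000009069 was high in the bone of dog F at 5.55, C6 in the bone of dog D at 2.94 and TNFRSF13B in the bone of dog C at 0.60.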

How the results depend on the processing

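The log2 fold change of CD5L was positive under all 13 alternatives run, between 3.35 and 5.43. Its mean paired difference on the log2(CPM + 1) scale was 2.29 with TMM factors, 2.91 with a pseudocount of 0.25, and 1.70 to 2.63 on leaving out single dogs. The number of genes called higher in tumor, 372, became 805 with the DESeq2 Wald test and 613 without the replicate block (the term for dog), and 494 lower became 1233 with DESeq2. Leaving out single dogs gave 224 (without dog B) to 330 higher and 327 (without dog B) to 420 lower, from fewer libraries, and 242 higher without dog F.

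The list of the 20 closest genes depended on most settings tried. Shared with it were 19 of 20 with a mean of at least 1 CPM over the tumors alone, 5 by Spearman's rho, 10 with TMM factors, 13 with a pseudocount of 0.25, 13 with a mean of at least 5 CPM and, on leaving out single dogs, 5 (without dog C) to 14 (without dog A), with 7 without dog D or E, 9 without dog B or F and 10 without dog G. The cause was not tested. Of the counts called per list and direction, 178 of 210 stayed within 1.5 times with all dogs and 187 of 210 with 1 left out. Most of these counts were 0 in the main fit, so the totals say little about the lists with calls. Proliferation genes called higher stayed at 11 without any single dog. Macrophage genes called higher, 2 in the main fit, fell to 1 or 0 without any dog other than A. Depth limits CD5L in bone, where no library had over 33 counts.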
